A study of Mus musculus with 8 samples.

Results

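Vascular addressins and endothelial adhesion molecules were examined by 10 genes: Madcam1, Glycam1, Icam1, Vcam1, Sele and Selp, which are inducible on vessels, and Icam2, Pecam1, Cdh5 and Cd34, which endothelium carries in general. They were taken by name, with older symbols of the same gene allowed, from the 21597 gene symbols on the array. No cutoff on a measured value chose them, but the list was drawn up with earlier results of these data known. All 10 were found, on 16 probes that fill 43 of the 43379 spots per array that are not controls. Pancreas RNA of 8 individual female NOD mice, 12 weeks old, was labeled with Cy5 (red). Each was hybridized to its own 2-color array against a single pool of Cy3-labeled (green) pancreas RNA from 8 NOD.B10 mice of the same age. NOD mice develop spontaneous autoimmune diabetes. NOD.B10 (NOD.B10Sn-H2b/J per the methods) is a congenic strain on the NOD background that carries the H2b haplotype and does not become diabetic, and neither strain received a treatment. Since the pool is the same on every array and the dyes were never exchanged, a strain difference and a dye effect at a given probe cannot be told apart, and the spread between arrays holds no spread between NOD.B10 animals.

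Leukocytes leave the blood in steps, and each step has its own endothelial molecules. P- and E-selectin (Selp, Sele) and the sialomucin addressins (Glycam1, Cd34 and, in mice, parts of Madcam1) carry or bind the sugars on which leukocytes roll. Icam1, Icam2, Vcam1 and Madcam1, members of the immunoglobulin superfamily, hold the integrins with which they stop. Pecam1 and Cdh5 (VE-cadherin) sit at the junctions through which cells pass. In islets that are infiltrated by lymphocytes, vessels are known to acquire addressins that are otherwise found in lymphoid tissue or at mucosal sites.

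The inducible genes are known targets of NF-kappaB, so the bases before their transcription starts are shown first. RefSeq promoters (GRCm38.p6) were at hand for 6 of the 10 members, namely Sele, Selp, Cd34, Icam1, Madcam1 and Glycam1. Icam2, Vcam1, Pecam1 and Cdh5 had no entry. The 250 bases before each start were searched on both strands for GGNNNTTCC, and 4 of these 6 promoters held it, beside 15.7% of 32851 RefSeq mouse promoters. The kappaB consensus was held by 1 of the 6, Madcam1, and by 7.25% of all promoters, and the matches of these motifs in Madcam1 overlap. Selp held GGNNNTTCC 14 to 6 bases before the start, and Cd34 and Glycam1 held neither motif in this window. The stretches from 160 to 61 bases before the start are given below for the 3 genes with matches there, with matching bases in capitals, at chr1:164048074-164048173, chr9:21015780-21015879 and chr10:79664399-79664498, each on the plus strand. A match is a run of letters and was not tested for binding.
Sele: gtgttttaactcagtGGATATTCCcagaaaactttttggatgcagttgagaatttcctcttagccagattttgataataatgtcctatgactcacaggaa
Icam1: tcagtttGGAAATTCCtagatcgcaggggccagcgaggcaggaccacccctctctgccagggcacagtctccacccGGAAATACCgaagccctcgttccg
Madcam1: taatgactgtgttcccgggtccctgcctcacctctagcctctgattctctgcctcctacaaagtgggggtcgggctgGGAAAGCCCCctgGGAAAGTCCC

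Expression is given as the log2 ratio of the NOD mouse over the pool, so that 0 is no difference and 1 is a 2-fold higher value in NOD. Processed signals are intensities in arbitrary units and are not compared between genes, since each probe has its own brightness. Per array, 9375 to 15304 spots had a red signal well above background and 24979 to 26343 a green one. Where a signal failed to clear the background, the deposited data give a stand-in value instead. Mice 1 to 4 were on slide 1 and mice 5 to 8 on slide 2, and grid placement was not rated good for mice 5, 6 and 7. The mean log2 ratio was tested against 0 with limma over 28105 probes. A gene passed the test at a Benjamini-Hochberg adjusted p below 0.01, and it was called changed when the difference was also at least 2-fold. Over all probes, 484 (1.72%) were called, of which 87 (0.310%) were higher and 397 (1.41%) lower in NOD. Of all 6 measured pancreas markers, each was detected in both dyes on all 8 arrays. RNA of whole pancreas does not tell more cells of a type from more RNA per cell.

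**Figure D1:**
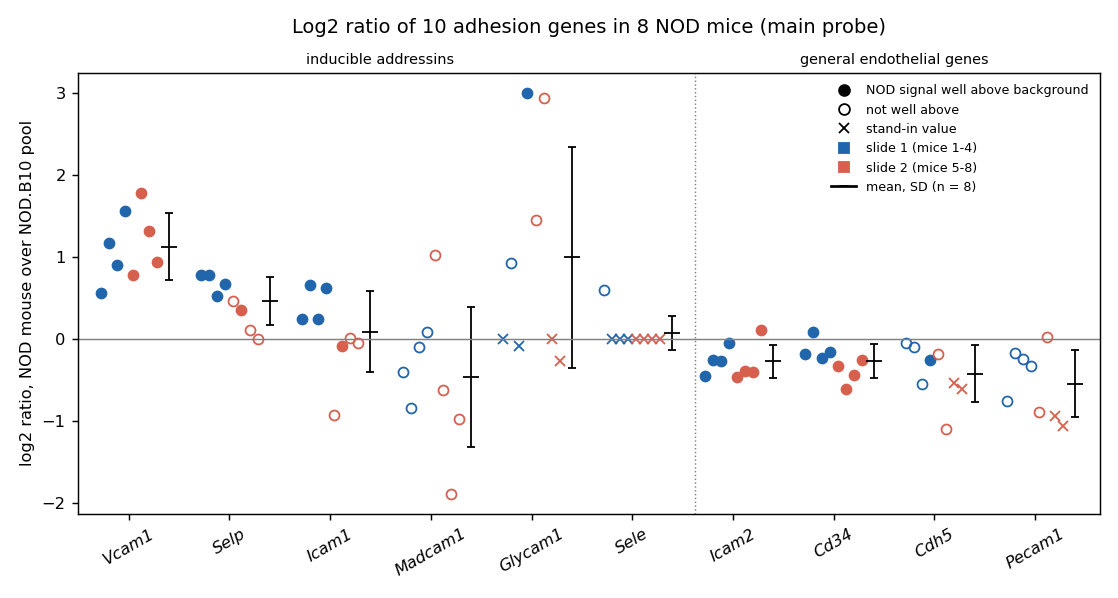
Log2 ratio (vertical axis) of the main probe of each of the 10 genes in 8 NOD mice, with the mean and SD beside the points. Filled circles are NOD signals well above background, open circles are not, crosses are stand-in values, and colors give the slide. Vcam1 lies above 0 in all 8 mice, while Icam2 and Cd34 lie below 0 in 7 of 8.

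Of the 10 members, 1 was called. Vcam1, the ligand of the integrin alpha4beta1, rose in the NOD pancreas with a mean log2 ratio of 1.13 ± 0.41 (SD, n = 8), or 2.19-fold (limma adjusted p = 0.00252). The mice ranged from 0.56 in mouse 1 to 1.79 in mouse 6, with a median of 1.05, so that all 8 were higher than the pool. Over all probes tested, 3.92% were higher in all 8 mice. The NOD signal ran from 181 to 623 (median 297) and the signal of the pool from 94.8 to 188 (median 148). The signals of the groups overlap across arrays, since mouse 8 read 181 and the pool 188 on the array of mouse 2, yet within each array the mouse was the higher. Of the 3 members detected in both dyes throughout, Vcam1 was the one with a mean above 0. The exact sign-flip permutation test gave p = 0.0078, the smallest that the signs of 8 mice can give. The probe covers chr3:116102302-116102361 (mm8).

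The call of Vcam1 rested on a single probe and did not hold under every way of processing the signals. The other probes of Vcam1, at chr3:116109058-116109117 and chr3:116118039-116118098, lie 6756 and 15737 bases toward the 5′ end of the gene. Their red signal was never well above background and was a stand-in value on 7 and 8 arrays, and their mean log2 ratios were 0.15 and -0.06, so that they do not bear on the call. With normexp background correction and loess, changed together, the mean was 0.47 (limma adjusted p = 0.0141), below 2-fold, while with median-centered background-subtracted signals it was 1.54 and called (limma adjusted p = 8.14e-05). Without mice 5, 6 and 7, whose grids were not rated good, it was 1.03 (limma adjusted p = 0.0286). It was 1.05 on slide 1 and 1.21 on slide 2. No member was called on either slide alone, where 0 and 3 of 28105 probes were called.

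Selp, the P-selectin of endothelium and platelets, averaged a log2 ratio of 0.46 ± 0.29 (SD, n = 8), 1.38-fold, and did not pass the test (limma adjusted p = 0.0179). Its values were 0.78, 0.78, 0.52 and 0.67 in mice 1 to 4 on slide 1. On slide 2 they were 0.46, 0.36, 0.11 and 0.00 in mice 5 to 8. All slide 1 values therefore exceeded all slide 2 values, and none lay below 0. The NOD signal ranged from 165 to 374 and was well above background on 5 arrays, against 123 to 227 in the pool. It passed under 2-fold in 4 alternatives, among them slide as a covariate with the same mean (limma adjusted p = 0.00328) and normexp with loess, which gave 0.19 (limma adjusted p = 0.00267). The probe covers chr1:165986204-165986263 (mm8), and another, 8102 bases nearer to the 5′ end, had a red stand-in value on 6 arrays and a mean of -0.21.

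Icam1, which holds the leukocyte integrins LFA-1 and Mac-1, showed no single direction. Its log2 ratios were 0.24, 0.66, 0.24 and 0.62 in mice 1 to 4 and -0.93, -0.08, 0.01 and -0.06 in mice 5 to 8. The slides did not overlap here either. The mean of 0.09 ± 0.50 (SD, n = 8) was far from the threshold (limma adjusted p = 0.76), and it was 0.44 on slide 1 and -0.26 on slide 2. The red signal was well above background on 5 arrays, 4 of them on slide 1. With median-centered background-subtracted signals the mean was -0.17. The probe covers chr9:20779144-20779203 (mm8), and another, 896 bases nearer to the 5′ end, had a log ratio of 0 in 7 of 8 mice.

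The probes of Selp, Icam1 and Pecam1 are printed 10 times per array, so the error between spots can be read directly. The spots of an array share 1 labeling and hybridization, and the error of those steps is not in it. On slide 1, the SD over the 10 spots ranged from 0.19 to 0.27 for Selp and from 0.12 to 0.28 for Icam1. On slide 2 it ranged from 0.47 to 1.05 for Selp and from 0.43 to 0.58 for Icam1. The red signal was well above background in 39 of 40 Selp spots and 40 of 40 Icam1 spots on slide 1, and in 19 and 15 of 40 on slide 2. Pooled over the arrays, the standard error of a mean of 10 spots was 0.13 for Icam1 and 0.17 for Selp, beside an SD between mice of 0.50 and 0.29. For Pecam1 it was 0.26, beside 0.41 between mice. Across the 232 tested probes with 10 spots, the median standard error was 0.17 and the median SD between mice 0.26. In mouse 5, 0 of the 10 Icam1 spots were above 0, and in mouse 2 all 10 were.

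**Figure D2:**
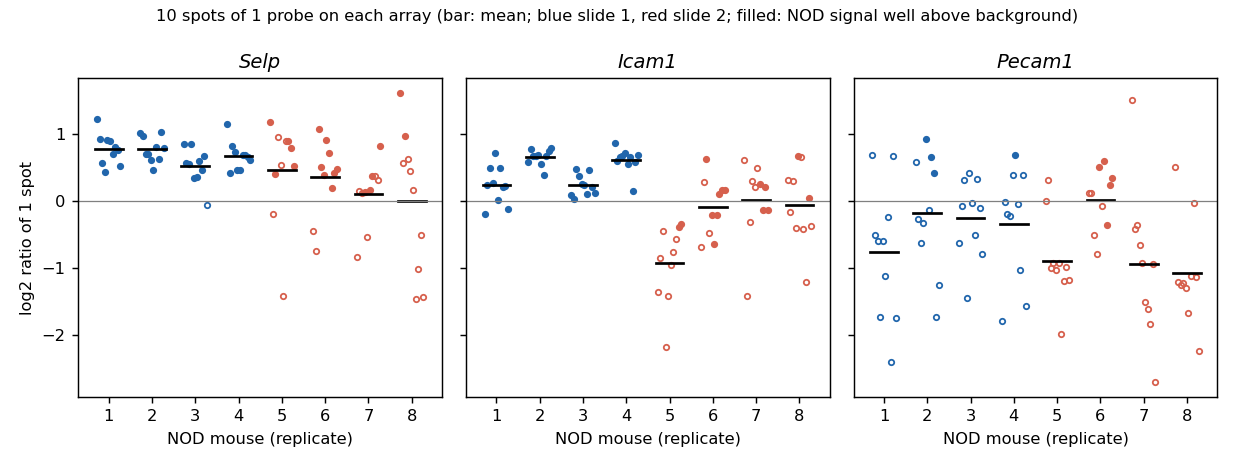
Log2 ratio (vertical axis) of each of the 10 spots of the Selp, Icam1 and Pecam1 probes on the array of each mouse (horizontal axis). Bars are means and filled points are NOD signals well above background. The spots of Selp and Icam1 lie close together in mice 1 to 4 and spread in mice 5 to 8.

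Across the 9 members tested, the slides did not overlap for 3, Icam1, Selp and Cd34, beside 12.9% of all probes. For each of them the exact permutation test of 4 against 4 mice gave p = 0.0286, the smallest this design allows, or 0.0857 adjusted over the 9 members. With 3 genes at that smallest p, 0.05 could not have been reached. The adjustment therefore does not decide on a slide effect. The mean on slide 1 was higher by 0.70 for Icam1, 0.46 for Selp and 0.29 for Cd34. Slide and mouse cannot be told apart, since each mouse was on a single array.

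The mucosal addressin Madcam1, which binds the gut-homing integrin alpha4beta7, was not well above background in any NOD mouse. Its NOD signal was well above background on 0 of 8 arrays, at 25.9 to 124, while the pool was well above background on all 8, at 61.0 to 101. The log2 ratios ran from -1.89 in mouse 7 to 1.02 in mouse 5, with a median of -0.52, and 6 of 8 were below 0. The mean of -0.47 ± 0.86 (SD, n = 8) did not pass the test (limma adjusted p = 0.305). It was 0.24 with median-centered signals and 0.05 with normexp and loess, and both of these change background correction and normalization together, so that its direction is not settled. The positions given for its single probe, chr10:79068267-79068578 (mm8), span 312 bases.

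Glycam1, a sulfated mucin of lymph node venules that is also secreted in milk, had the largest SD among the main probes of the members. The log2 ratio was 3.00 in mouse 4, 2.95 in mouse 6, 1.45 in mouse 5 and 0.92 in mouse 2, and lay between -0.27 and 0.00 in the other 4, which had stand-in values in red. The pool was well above background on 0 arrays, at 16.5 to 29.9, and the NOD mice on 1, that of mouse 4, where the signal was 211. The mean of 1.00 ± 1.35 (SD, n = 8) did not pass the test (limma adjusted p = 0.17). With normexp and loess it was 0.12. With median-centered signals it was 2.08 and called, but the pool was not detected and the undetected Sele read 2.77 on that scale, so that 2.08 is not a measured fold. Its probe lies at chr15:103390942-103391001 (mm8). Of 5 milk protein genes, Csn1s1 and Csn2 were well above background on no array in either dye, whereas Csn3 and Lalba were so in both dyes on all 8 arrays and Wap in green on 8.

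E-selectin (Sele) was not detectable in these arrays. Both signals were stand-in values on 7 of 8 arrays, the log ratio was 0 there and 0.59 in mouse 1, and the gene did not reach the signal minimum to be tested. Its probe lies at chr1:165894270-165894329 (mm8).

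**Figure D3:**
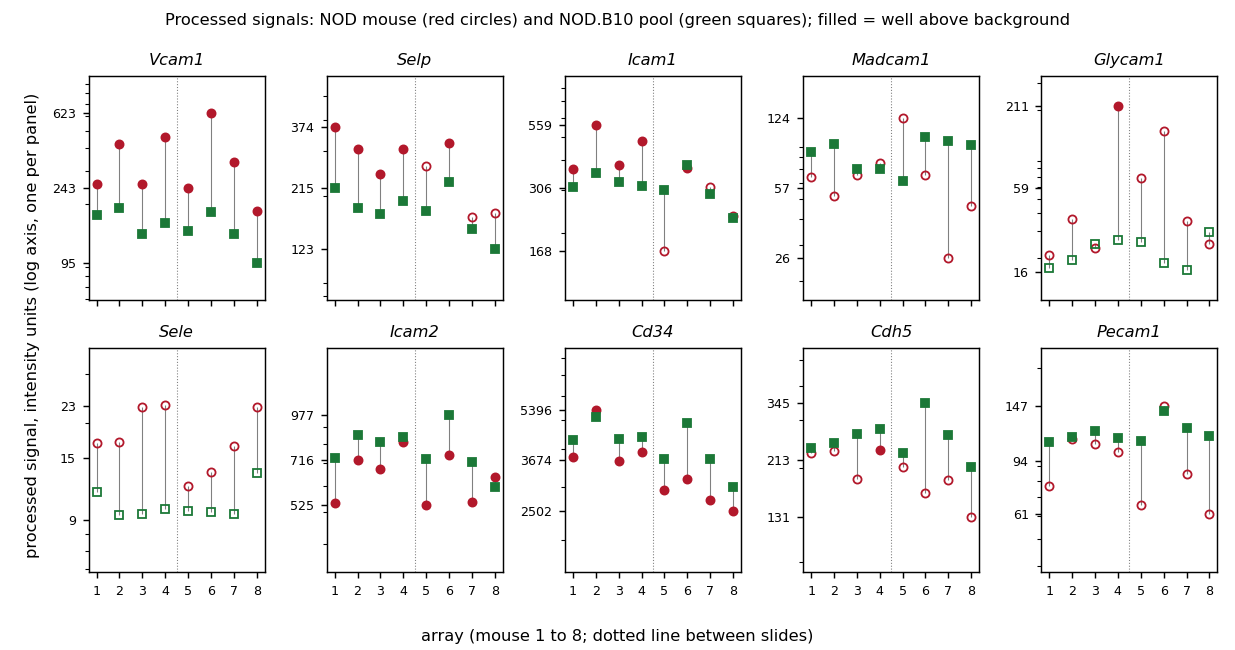
Processed signals (intensity, log axis, 1 scale per panel) of the NOD mouse (red circles) and the NOD.B10 pool (green squares) on each array, with the pair on an array joined by a line. Filled symbols are well above background. In Vcam1 the mouse lies above the pool on all 8 arrays, and in Sele neither is well above background on any.

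The 4 general endothelial genes all had means below 0 and none passed the test. Icam2, a constitutive LFA-1 ligand of resting endothelium, averaged -0.27 ± 0.20 on the log2 scale (SD, n = 8, limma adjusted p = 0.0327). It was below 0 in 7 of 8 mice, from -0.46 in mouse 5 to 0.11 in mouse 8. Cd34, a sialomucin of endothelium and of stem cells and fibroblasts, averaged -0.27 ± 0.21 (SD, n = 8, limma adjusted p = 0.0353), with 7 of 8 mice below 0 and a range from -0.61 in mouse 6 to 0.08 in mouse 2. Each of them was detected in both dyes on all 8 arrays, with NOD signals of 525 to 812 against 593 to 977 in the pool for Icam2 and 2502 to 5396 against 3005 to 5096 for Cd34. The signals of the groups overlap in both. With median-centered signals Icam2 was -0.53 and Cd34 -0.89, and neither passed. Their probes lie at chr11:106193821-106193880 and chr1:196661922-196661981 (mm8).

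Cdh5 and Pecam1 were near background in the NOD mice. Cdh5 averaged -0.43 ± 0.35 (SD, n = 8, limma adjusted p = 0.0416) and was below 0 in all 8 mice, as were 9.40% of all probes. Its red signal, at chr8:107033388-107033447 (mm8), was well above background on 1 array. A probe 660 bases nearer to the 5′ end gave -0.33 ± 1.44 (SD, n = 8). Pecam1 averaged -0.55 ± 0.41 (SD, n = 8, limma adjusted p = 0.031), with red well above background on 0 arrays and green on 8. The given positions of the Pecam1 probe, chr11:106497165-106499018 (mm8), span 1854 bases, and its other probe, which starts 669 bases inside them, had a log ratio of 0 in all 8 mice. Normexp and loess brought Pecam1 to -0.019 and Cdh5 to -0.15, while median-centered signals brought Cdh5 to -1.27, where it was called (limma adjusted p = 0.00286).

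The study design allows the inducible genes to be set beside general endothelial genes of the same mouse. The mean log2 ratio of Icam2 and Cd34, the general members with a detected NOD signal, was subtracted on each array and all 28105 probes were tested again. This moved the median of all probes from -0.09 to 0.18. Now 410 probes (1.46%) were called, 279 of them higher (0.993%), and among the inducible members again 1, Vcam1. Vcam1 stood 1.40 ± 0.16 (SE) above Icam2 and Cd34 (limma adjusted p = 0.00115), which is 1.22 above the median probe. The difference ran from 0.88 in mouse 1 to 2.29 in mouse 6 and lay above 0 in all 8 mice. With the other 13 detected endothelial genes as the reference it was 1.39 (limma adjusted p = 0.000947).

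Selp stood 0.73 ± 0.12 (SE) above Icam2 and Cd34 and passed the test below 2-fold (limma adjusted p = 0.00421), which is 0.55 above the median probe. Mouse 8 was lowest with 0.08 and mouse 1 highest with 1.10. When each mouse was left out in turn, Selp passed in 2 of 8 fits, those without mouse 7 and without mouse 8, and the adjusted p reached 0.0154. Icam1 stood 0.36 above the reference (limma adjusted p = 0.1), with 7 of 8 mice above 0 and mouse 5 at -0.53. Glycam1 stood 1.27 above it (limma adjusted p = 0.0567) and Madcam1 at -0.20 (limma adjusted p = 0.617). With each mouse left out, Madcam1 ranged from -0.43 to -0.015. With normexp and loess Madcam1 turned to 0.52 (limma adjusted p = 0.00265), with Glycam1 at 0.59 (limma adjusted p = 0.00189) and Icam1 at 0.51 (limma adjusted p = 0.00226). All 3 passed below 2-fold there, where the median of all probes stood at 0.46. The 3 inducible members with red well above background on 4 or more arrays were Vcam1, Selp and Icam1. Their mean exceeded that of Icam2 and Cd34 in all 8 mice, by 0.37 to 1.19, and without Vcam1 by 0.05 to 0.82. Choosing by the NOD signal left out Madcam1, which was well above background in the pool alone. Over all 5 tested inducible and 4 general members, the difference was 0.38 to 1.40. The median probe itself stood 0.18 above Icam2 and Cd34. These differences of means are a description and were not tested.

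**Figure D4:**
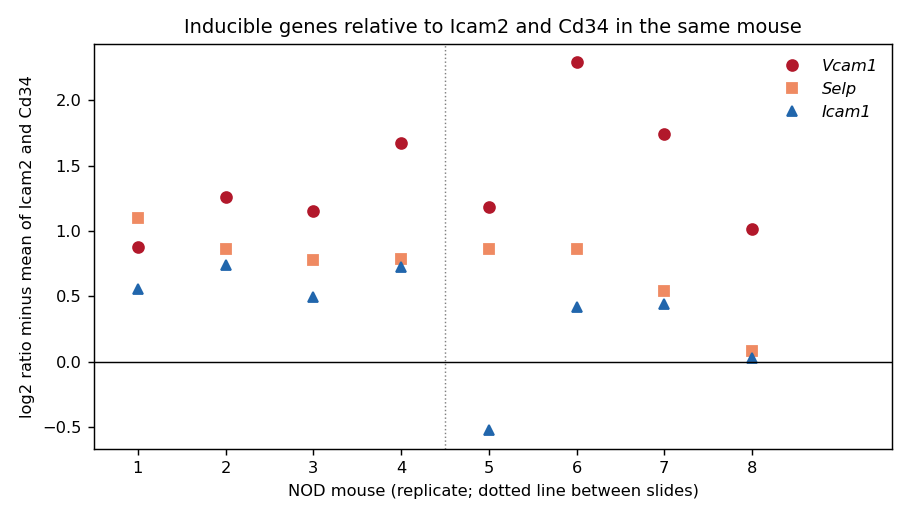
Log2 ratio of Vcam1, Selp and Icam1 minus the mean log2 ratio of Icam2 and Cd34 in the same mouse (vertical axis) for mice 1 to 8 (horizontal axis). Vcam1 and Selp lie above 0 in all 8 mice, and Icam1 falls to -0.53 in mouse 5.

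Of 20 other endothelial genes tested, 6 passed lower (Flt1, Kdr, Emcn, Robo4, Eng and Nos3), 0 passed higher, and none was called. Over all probes 4.40% passed lower and 2.54% higher. The median of the list was -0.31, beside -0.09 over all probes tested. Flt1, a receptor of VEGF, had a log2 ratio of -0.67 (limma adjusted p = 0.00487, and below 0.01 in the fits without mouse 2, 4 or 6 but in no other that left out a mouse), and Mcam, a junctional adhesion molecule also found on pericytes, -0.65 without passing (limma adjusted p = 0.052). Kdr, the main VEGF receptor, stood at -0.42, and Nos3, the endothelial nitric oxide synthase, at -0.81 with the NOD signal well above background on 0 arrays. Kdr, Emcn, Robo4, Eng and Nos3 were named after their values were seen. The highest mean of the list was 0.68, in a gene with red well above background on fewer than 4 arrays. Among the genes with red so detected on 4 or more, Ackr1, a chemokine receptor of venules, was highest at 0.24. Plvap, a diaphragm protein of fenestrated vessels, followed at 0.04, and neither passed. Without mouse 8, at -2.24, Ackr1 was 0.59 and passed below 2-fold (limma adjusted p = 0.00773). With median-centered signals Mcam was -1.38 (limma adjusted p = 0.00646) and Flt1 -1.12 (limma adjusted p = 0.00215), and both were called. Mcam was -0.15 on slide 1 and -1.16 on slide 2, with no overlap, and with slide as a covariate it passed at the same mean (limma adjusted p = 0.0019). Relative to Icam2 and Cd34, the values of Flt1 and Kdr were -0.40 and -0.15, and none of these 20 genes was called. The summed signal of the list, in which its brightest probes count most, was lower in the mouse than in the pool on all 8 arrays.

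The ligands that leukocytes bring to these molecules were described by 10 genes. Of these, 2 passed higher, Spn and Selplg, and 0 passed lower. The median was 0.30. Spn (CD43), a sialomucin of T cells that binds E-selectin and Icam1, was called at 1.92 ± 0.92 (SD, n = 8, limma adjusted p = 0.0061). Its mice ranged from 0.45 to 3.30 and its NOD signal was well above background on 5 arrays. When each mouse was left out in turn the adjusted p of Spn lay between 0.00527 and 0.0191, below 0.01 in 2 of 8 fits, those without mouse 5 and without mouse 8. With normexp and loess the mean was 0.39, below 2-fold, and the call was also lost with the plain one-sample statistic (adjusted p = 0.011), on slide 1 (2.46, limma adjusted p = 0.0287), on slide 2 (1.38, limma adjusted p = 0.183) and without mice 5, 6 and 7 (2.06, limma adjusted p = 0.0564), where it stayed above 2-fold. Selplg (PSGL-1), the main ligand of P-selectin, rose by 0.65 on the log2 scale (limma adjusted p = 0.00119), in all 8 mice, and was named after its value was seen. Itgb7, the beta chain of the Madcam1 receptor, averaged 0.89 and did not pass (limma adjusted p = 0.0741). Itgb2, the beta chain of LFA-1 and Mac-1, averaged 0.00 and Cd44 -0.04, both without a stable direction.

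Among 14 inducers and transcription factors, 1 passed and was called. Ltb, which encodes lymphotoxin beta, a cytokine that maintains the venules of lymph nodes, rose by 1.44 ± 0.54 on the log2 scale (SD, n = 8, limma adjusted p = 0.00271). It was higher in all 8 mice, from 0.45 in mouse 5 to 2.05 in mouse 4, with an NOD signal of 541 to 3636 against 397 to 875 in the pool. Ltb lies at chr17:34804204-34804263 (mm8), in the H2 region where the strains carry different haplotypes, and a difference in sequence under the probe was not tested. With normexp and loess Ltb was 0.79 (limma adjusted p = 0.0116), and its call was also lost, above 2-fold, on slide 1 (1.56, limma adjusted p = 0.0362), on slide 2 (1.33, limma adjusted p = 0.129) and without mice 5, 6 and 7 (1.53, limma adjusted p = 0.0193). The NF-kappaB subunits Relb and Nfkb1 stood at 0.64 and -0.28, and the homeobox factor Nkx2-3, needed for Madcam1 in gut and spleen, at -0.18, none of which passed. Nfkb1 was at -2.03 in mouse 8, and with each mouse left out its mean ranged from -0.38 to -0.026. Tnf and Lta were well above background in red on 0 arrays.

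Of 7 tested enzymes that sulfate or glycosylate the sialomucins, none passed, and the median was -0.38. Gcnt1 (-0.38) and Chst2 (0.04) were those with a detected NOD signal. Gcnt1 was above 0 in mice 1 to 4, with a mean of 0.55 on slide 1, and below 0 in mice 5 to 8, with a mean of -1.32 on slide 2. Of 8 genes of lymph node stroma and follicles, none passed either, with a median of 0.44. Ccl19, which guides T cells and dendritic cells, had the highest mean, 1.32 (limma adjusted p = 0.0109), in 8 of 8 mice. Enpp2 averaged -0.16, Ccl21b -0.47 and Cxcl13, which guides B cells, 0.95. Without mouse 5 Ccl19 and Cxcl13 were called, at 1.48 for Ccl19 (limma adjusted p = 0.00955) and 1.22 for Cxcl13 (limma adjusted p = 0.00738). Ccl19 was also called with median-centered signals (1.71, limma adjusted p = 1.2e-05), with normexp and loess (1.00, limma adjusted p = 0.00492), with the ratio of processed signals, with array weights, among detected probes alone and at an adjusted p of 0.05. Cxcl13 was called with median-centered signals, at 1.39. Relative to Icam2 and Cd34 Ccl19 was called at 1.59 (limma adjusted p = 0.00258).

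Markers of other cells were read beside Vcam1. A list of 10 leukocyte markers held mostly T and B cell genes, but also Ptprc, which all leukocytes carry, and Itgax, a gene of dendritic cells. It had a median of 1.13, with 8 of 10 means above 0, and its summed signal was higher in the mouse than in the pool on all 8 arrays. These sums ran from 4787 to 19313 in the mice and from 3212 to 8836 in the pool. Cd3e alone gave 3803 of the 4787 in mouse 5 and 15423 of the 19313 in mouse 6, so the sum mostly follows that probe. Of the genes on the list, 1 passed, Cd3e at 0.61 (limma adjusted p = 0.00762), and 0 were called. With any single mouse left out Cd3e no longer passed, at an adjusted p of 0.0119 to 0.023. Lck (2.30, limma adjusted p = 0.0128), Ptprc (1.46, limma adjusted p = 0.021) and Ms4a1 (1.01) did not pass. Lck and Ptprc were called without mouse 5, at 2.63 and 1.72, and with median-centered signals, at 2.70 and 1.25. Both were also called with the ratio of processed signals, among detected probes alone and at an adjusted p of 0.05, and Lck with array weights. Detected probes were chosen by the NOD signal and not by the pool, so the calls among them are not independent of a high NOD value. The log2 ratio was 0 for Lck in mouse 5 and for Cd3g in mice 6 and 7. Relative to Icam2 and Cd34, 3 of the 10 were called higher, Lck at 2.58 (limma adjusted p = 0.00389), Cd3d at 2.35 (limma adjusted p = 0.00348) and Ptprc at 1.73 (limma adjusted p = 0.00495). Cd3d was well above background on 3 arrays in red and 5 in green. The pool read only 19.0 to 49.8 for Cd3d and 18.5 to 38.6 for Lck, so the size of their folds is uncertain. Their part in the result on Vcam1 was not tested.

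Platelets also carry Selp and Pecam1. Of 7 platelet genes none passed, the median was 0.00, and 4 were never well above background in red. Gp1ba averaged 0.80 (limma adjusted p = 0.0209) and Pf4 -0.04. The summed platelet signal was 890 to 2648 in the mice and 955 to 1616 in the pool, and its part in the value of Selp was not tested. Pf4 alone gave 544 of the 890 in mouse 5 and 1055 of the 2648 in mouse 6, so the sum leans on bright probes. Vcam1 and Cd34 are also made by stromal cells. Of 8 pericyte and fibroblast genes, 1 passed, Col1a1 at -0.54 (limma adjusted p = 0.00447, and below 0.01 only without mouse 2, 4 or 8 among the fits that left out a mouse), with Acta2 at -0.54, Col3a1 at -0.10 and Pdgfrb at 0.12. Their sum, in which the brightest probes count most, was higher in the mouse on 1 array, and the median was -0.29. The milk protein genes Csn3 and Lalba averaged -0.22 and -0.28. In the pancreas list, Ctrb1 (0.54), Pnlip (0.45), Ins2 (-0.38) and Gcg (-0.70) did not pass. Ins2 was -1.13 on slide 1 and 0.37 on slide 2, with no overlap. With normexp and loess Ctrb1 was 2.16 (limma adjusted p = 0.00255) and Pnlip 2.07 (limma adjusted p = 0.00241), and with median-centered signals Pnlip was 1.19 (limma adjusted p = 0.000383), each called.

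**Figure D5:**
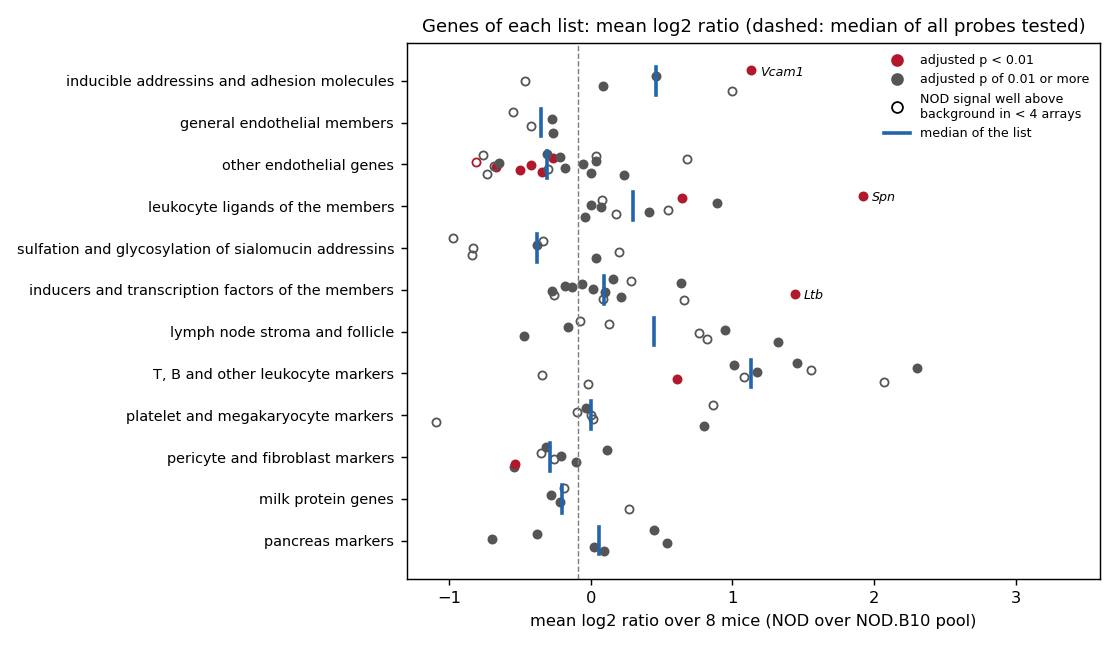
Mean log2 ratio over 8 mice (horizontal axis) of each tested gene, by list. Red points passed at an adjusted p below 0.01, open points had an NOD signal well above background in fewer than 4 arrays, bars are list medians, and the dashed line is the median of all probes, -0.09. Vcam1 is the red point of the inducible list, and 6 red points lie below 0 in the other endothelial genes.

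For members detected in both dyes on all arrays, the genes of closest log2 ratio in the 8 mice were sought among 6189 other genes so detected, by root mean square difference. For Vcam1 these were Trim7 (0.33), 2310014H01Rik (0.33) and the T cell receptor segment Tcrb-V13 (0.35). For Icam2 they were Gmppb (0.10), Mrpl11 (0.10) and Snapc4 (0.12), and for Cd34 Sc5d (0.09), Cdc5l (0.09) and Uqcrfs1 (0.10). The nearest genes of Vcam1 were farther from it than those of Icam2 and Cd34 from theirs. This measure includes level and spread. Vcam1 stood at 1.13 ± 0.41 (SD, n = 8), beside -0.27 ± 0.20 for Icam2 and -0.27 ± 0.21 for Cd34. The measure therefore does not rank likeness of pattern. All these ratios share the arrays and the pool.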

How the data were processed

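The authors extracted the 8 array images with Agilent Feature Extraction 10.7.3.1. Each deposited file lists its spots with a log10 ratio (red to green) and with an intensity for either dye, called the processed signal, which the software had background-subtracted, detrended and dye-normalized. Flags mark signals well above background and stand-in values. Probe positions are on mm8 and no position was converted.

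Ratios were converted from log10 to log2 and averaged over the spots of a probe. The 28105 probes that had a symbol and reached a red processed signal of 25 on 4 or more arrays entered limma 3.58.1 in R 4.3.3, in a one-sample moderated test. For genes on several probes, the main probe is the brightest over both dyes. In a simulation of this fit over 28105 probes, 135 of 200 probes changed 3-fold were recovered, with 0 false calls. Its values were independent, with a true mean of 0 for unchanged probes, so it held no dye effect or pool error. Its 0 false calls therefore do not carry over to the measured calls. The 8 mice are 1 group; labels do not pair them, and p-values measure the spread between mice against a single pool. Single genes were tested over all sign flips of the mice. The number of arrays limits the precision.

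The members and lists were chosen with earlier results of these data known. Named are all members, every called gene of a list, the 2 highest and 2 lowest detected genes of each list, and the 3 genes nearest to each well detected member. Kdr, Emcn, Robo4, Eng, Nos3, Selplg, Csn1s1, Csn2, Wap, Cd3d, Cd3g, Itgax, Tnf and Lta were named after their values were seen. Alternatives were the filter, background correction, statistic, weights, slide, thresholds, probes, reference genes and arrays left out. Motifs and tables used Python 3.11.15.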

Additional observations from a re-analysis of the deposited data

Results flagged for a closer look

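In 44 genes examined for a mouse far from the other 7, 5 genes had one, from mice 1, 5 and 8, and chance alone gives about 1 in 20. Icam1 was at -0.93 in mouse 5, with the others from -0.08 to 0.66. Sele was at 0.59 in mouse 1 and 0.00 in the others, which had stand-in values in red. Ackr1 was at -2.24 in mouse 8, against 0.11 to 0.82. Ccl21b was at -1.84 in mouse 8, against -0.67 to 0.25. Cxcl13 was at -0.94 in mouse 5, against 0.77 to 1.96.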

How the results depend on the processing

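Over all 28105 probes, 484 were called. The count was 133 among probes whose red signal was detected on 4 or more arrays, 7248 with median-centered background-subtracted signals (signals floored at the noise of negative controls), 87 with normexp and loess, 4160 with the ratio of processed signals, 919 at an adjusted p of 0.05 and 1109 at a 1.5-fold change. It was 0 on slide 1 alone and 3 on slide 2 alone, with 4 mice each. Without mice 5, 6 and 7, a choice made after seeing the data, it was 39. With each mouse left out it was 243 to 336. The higher and lower calls were 87 and 397 as reported, 5976 and 1272 with median-centered signals, 3470 and 690 with the ratio of processed signals, 61 and 26 with normexp and loess, and 91 and 42 among those detected probes. The cause was not tested.

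The number of members called, 1 of 9 tested, was 1 with each mouse left out. It was 3 with median-centered signals (Vcam1, Glycam1 and Cdh5), 0 with normexp and loess, 0 on either slide alone, 0 without mice 5, 6 and 7, and 0 with either other probe of Vcam1, neither of which had an NOD signal well above background on any array. The number of inducible members called relative to Icam2 and Cd34, 1, was 1 with each mouse left out. It was 3 with median-centered signals, 2 at 1.5-fold, and 0 with normexp and loess, on either slide alone or without mice 5, 6 and 7. Over all probes this relative count was 410 as reported, 10019 (9961 higher) with median-centered signals and 1311 (1071 higher) at 1.5-fold. At its main probe Vcam1 lost the call, relative to Icam2 and Cd34 as well, with normexp and loess, on either slide alone and without mice 5, 6 and 7.

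Another probe of Vcam1 gave -0.058 and of Selp -0.21, with red stand-in values on 8 and 6 arrays, which measures no change of sign. Some means of main probes changed sign, and none of these was called before or after, although Madcam1 relative to Icam2 and Cd34 passed below 2-fold in the other direction with normexp and loess. With median-centered signals, Madcam1 was 0.24 (relative to Icam2 and Cd34 0.95), Icam1 -0.17, Itgb2 0.17, Cd44 0.58, Chst2 -0.58, Nfkb1 0.23, Relb -0.12, Nkx2-3 0.14, Enpp2 0.062, Pdgfrb -0.075 and Csn3 0.035. With normexp and loess, Madcam1 was 0.052 (relative 0.52), Itgb2 0.12, Cd44 0.17, Chst2 -0.33, Nfkb1 0.10, Nkx2-3 0.056 and Enpp2 0.094. With array weights Cd44 was 0.17. On slide 1 alone, Plvap was -0.20, Cd44 0.59, Gcnt1 0.55, Nkx2-3 0.0050, Enpp2 0.023 and Pf4 0.038. On slide 2 alone, Icam1 was -0.26, Itgb2 0.26, Chst2 -0.26, Pdgfrb -0.015, Col3a1 0.024 and Ins2 0.37. Without mice 5, 6 and 7, Plvap was -0.22, Ackr1 -0.077, Gcnt1 0.10 and Pf4 0.061. With each mouse left out, Plvap ranged from -0.035 to 0.10, Itgb2 from -0.084 to 0.070, Cd44 from -0.19 to 0.32, Chst2 from -0.030 to 0.17, Enpp2 from -0.28 to 0.0019 and Pf4 from -0.076 to 0.035. No paired analysis was possible because the 8 mice form a single group and share their reference pool. A red signal near background limits Madcam1, Glycam1, Sele, Pecam1 and Cdh5.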

Other observations

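The log2 ratio of Vcam1 was set beside that of 25 listed genes with both dyes well above background on all 8 arrays, a family chosen after the values were seen. None of the 25 relations passed an adjusted p of 0.05. The closest was Ccl19, with Pearson's r of 0.88 (exact permutation p = 0.00412, Benjamini-Hochberg adjusted p = 0.103) and Spearman's rho of 0.93 (exact permutation p = 0.00223, adjusted p = 0.0558) over 8 mice. Without the 2 mice farthest from the median of Vcam1, mice 4 and 6, r was 0.89. Next by r were Col3a1, of the pericyte and fibroblast list, at 0.79 (exact permutation p = 0.0161, adjusted p = 0.201) and Selplg at 0.72 (exact permutation p = 0.0414, adjusted p = 0.291). Without those mice, r was 0.42 for Col3a1 and 0.82 for Selplg. Ltb followed with r of 0.68 (exact permutation p = 0.0628, adjusted p = 0.291), rho of 0.81 (exact permutation p = 0.0218, adjusted p = 0.181) and r of 0.84 without those mice. Icam2 had r of 0.14 (exact permutation p = 0.737, adjusted p = 0.915) and rho of 0.43 (exact permutation p = 0.299, adjusted p = 0.623), and r of 0.17 without them. Each slide held 4 mice, and no relation within slides or adjusted for slide was computed. All the ratios share the pool and, within a mouse, the array.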
